A study of Mus musculus with 8 samples.

Results

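The beta-crystallin genes of the mouse were followed through maps of chromatin folding and CTCF binding in embryonic stem (ES) cells and in the epithelium and the fiber cells of the lens. The family had 6 members, named by symbol: Cryba4, Crybb1, Crybb2 and Crybb3 on chromosome 5, Cryba1 on chromosome 11 and Cryba2 on chromosome 1. They were 6 of 20191 protein-coding genes of at least 1 kb. For each gene, loops with an anchor within 100 kb of the gene body, loops spanning the gene, topologically associating domains (TADs) touching it, and CTCF peaks within 100 kb were collected, with gene bodies from RefSeq on GRCm38.p6.

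Hi-C, which counts ligated pairs of distant DNA fragments, was done on v6.5 ES cells (wild type, kept without feeders in LIF) and on both cell types of the lens, with 2 replicates each. The lens cells were microdissected from CD-1 mice at postnatal day 0.5, pooled as 30 lenses a replicate, and an ES cell replicate held 2000000 cells. CTCF ChIP-seq of lens epithelium and of lens fiber cells came from 200 lenses of the same strain and age, with 1 peak list for each. The ES cell line and the lenses differed in strain as well as in cell type, so that strain and cell type cannot be told apart. RNA was not measured here, and the dissected layers were not checked against marker genes. The authors merged the replicates before calling, so each cell type had 1 list of loops and 1 of TADs, no replicate error existed, and cell types were compared without a test. Intervals on contacts are exact 95% Poisson intervals of the observed count and cover counting error only.

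Beta-crystallins are structural proteins of the lens, built of Greek key motifs and packed at very high concentration in the elongated fiber cells. The acidic βA and basic βB chains assemble into oligomers with each other, and mutations in their genes cause cataract. CTCF is a zinc finger protein that binds DNA and halts the loop-extruding cohesin complex. A pair of CTCF-bound sites often forms the anchors of a loop, and regions rich in internal contacts are called as TADs.

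The 4 genes of chromosome 5 lay as 2 close pairs. Cryba4, for an acidic chain, occupied chr5:112246492-112263625 on the minus strand, and Crybb1, for a basic chain, chr5:112254563-112269585 on the plus strand. Their listed start sites pointed away from each other, 3302 bases apart, and their annotated bodies shared 9063 bases. Crybb2 (chr5:113058258-113070117) and Crybb3 (chr5:113075839-113082236), both for basic chains and both on the minus strand, were separated by 5722 bases. Between Crybb1 and Crybb2 lay 789 kb. The acidic-chain genes Cryba1 (chr11:77718614-77725293) and Cryba2 (chr1:74889934-74898842) stood alone, both on the minus strand. The 6 bodies were 6.40 to 17.1 kb long.

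All 6 genes had 1 promoter each in the RefSeq promoter table (GRCm38.p6), from 250 bases before the start site to 50 after. No CTCF peak of either lens list overlapped any of these 6 windows. Short stretches are shown because they are what the windows of the separate loci share in letters. In the lines for 3 genes the capitals mark TATAA, the core of a TATA box, found on the gene's own strand between 40 and 16 bases before the start site:
Cryba4, chr5:112252532-112252561: tcctttcctgccTATAAgagccctgacctt
Crybb1, chr5:112255778-112255807: tgtctgccaggcTATAAaatggggggttgg
Cryba1, chr11:77725299-77725328: catctgtgggacTATAAagaggggatccgg

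These 3 stood 31, 30 and 23 bases before the start, and 3.52% of the 32851 promoters of the table held TATAA in that stretch. In the next lines the capitals mark TGCTGA, or TCAGCA where it reads on the other strand, searched on both strands. Large Maf proteins, regulators of lens fiber differentiation, recognise sites built around these letters:
Cryba4, chr5:112252578-112252607: ctatctctggctTGCTGAgtctgtgtttgt
Crybb1, chr5:112255724-112255753: cccatccaggttTGCTGAcccagctgcctc
Crybb3, chr5:113081634-113081663: caggatgctatcTCAGCAtcccgtaatgtg
Cryba1, chr11:77725333-77725362: gggaaaagagagTGCTGAcagagccgctgg
Cryba2, chr1:74893275-74893304: acgatgtgcgccTCAGCActttccgttgtc

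So 5 of 6 windows held these letters, Cryba4 at 3 places, against 19.5% of all promoters. The window of Crybb2 held neither run of letters. The motifs were chosen with the sequences in view, and a match is a description of letters, not of a bound site.

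The 6 genes differed widely in the loops around them. Within 100 kb of the family lay 18 loops of the ES cell list, 9 of the epithelium list and 10 of the fiber list. The whole lists held 8459, 8005 and 7682 loops, so they were closer in size than the counts at these genes. Of the ES cell loops 10 of 18 lay near Cryba2, a gene with 0 loops in either lens list. Cryba4 and Crybb1 showed the reverse, with 0 loops in ES cells and 2 in each lens list. Crybb2 had 3, 3 and 5 loops in ES cells, epithelium and fiber cells, Crybb3 had 3, 4 and 5, and Cryba1 had 5, 3 and 3. The lens difference at Crybb2 depended in part on the window edge. A 50 kb fiber loop counted at 99.9 kb, while its 45 kb epithelium partner lay outside at 110 kb.

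**Figure D1:**
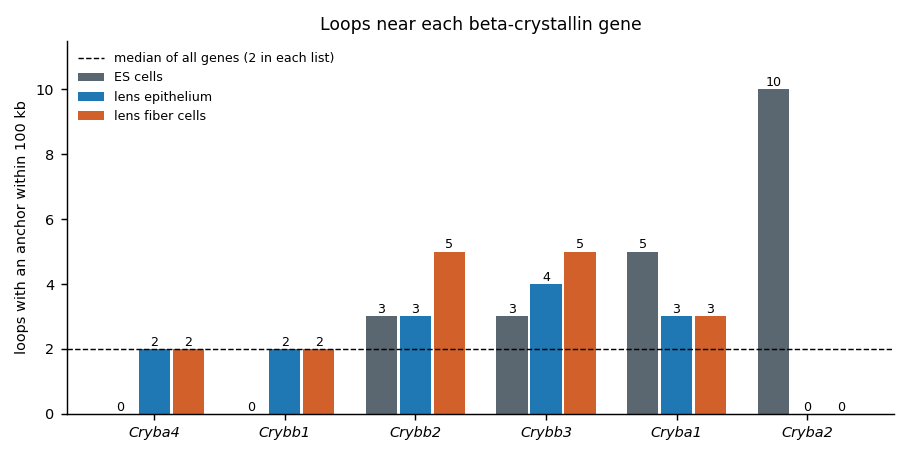
Number of loops (y axis) with an anchor within 100 kb of each beta-crystallin gene (x axis), with 1 bar for each cell type and a dashed line at the median of all genes, 2 in each list. Cryba4 and Crybb1 have bars in the lens lists alone, Cryba2 has a bar of 10 in ES cells alone, and the other genes have loops in all lists.

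Having some loop close by was common. An anchor lay within 100 kb of 81.2% of all genes in ES cells, 79.0% in epithelium and 76.9% in fiber cells, and of 4, 5 and 5 of the 6 members. The number at Cryba2 in ES cells was far out among all genes, as 0.822% of genes had 10 or more. In fiber cells 6.16% of genes had at least the 5 loops seen at Crybb2 and Crybb3. Loops shared by neighbours were counted once in the totals and once for each gene otherwise.

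Cryba4 and Crybb1 lay inside a short loop in both lens lists. In lens epithelium its anchors were chr5:112225001-112250000 and chr5:112325001-112350000, 100 kb apart, with 154 observed against 74.3 expected contacts, a ratio of 2.07 (1.76 to 2.43). In lens fiber cells the anchors were chr5:112240001-112250000 and chr5:112320001-112330000, 80 kb apart, with 71 against 28.6 contacts, a ratio of 2.48 (1.94 to 3.13). The intervals overlapped, and the anchors were called at different widths of 25 and 10 kb. In both lists the lower anchor reached over the end of Cryba4 and stopped 4.56 kb short of Crybb1. The other anchor lay over Tfip11, for a splicing factor, in both lists, and the wider epithelium anchor also held Srrd. Tpst2, for a tyrosylprotein sulfotransferase, lay between the anchors.

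The other loop near this pair ran away from it for 750 kb, from chr5:111400001-111410000 to chr5:112150001-112160000 in epithelium, with 35 against 9.53 contacts and a ratio of 3.67 (2.56 to 5.11). In fiber cells the same loop was called with 25 kb anchors, at 174 against 53.9 contacts and 3.23 (2.77 to 3.75). Its far fiber anchor overlapped Mn1, for a transcriptional coactivator. No ES cell anchor came closer than 186 kb to Cryba4 or 180 kb to Crybb1.

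TADs set this pair apart in another way. ES cells had a TAD of 180 kb holding both genes, chr5:112215001-112395000, although no ES loop was called there. Fiber cells had a smaller one of 90 kb, chr5:112235001-112325000, whose ends fell close to or inside the anchors of the 80 kb fiber loop. The epithelium list had none over the genes. All lists placed the next TAD, of 785 to 800 kb, so that it ended 66.5 kb from Cryba4.

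No called CTCF peak lay in either gene of this pair. All epithelium peaks within 100 kb lay on the Cryba4 side, and in fiber cells only a weak peak lay beyond Crybb1. The closest shared site, chr5:112240795-112241060 in epithelium and chr5:112240794-112241105 in fiber cells, was 5.43 and 5.39 kb beyond the end of Cryba4. Its fold enrichment over background was 6.39 and 6.40, and it lay inside the lower anchor of the short loop in both lists. The upper anchor held 0 peaks in either list. Cryba4 had 3 peaks within 100 kb in epithelium and 6 in fiber cells, and Crybb1 had 2 and 5. The 3 epithelium peaks all had fiber partners, the strongest 92.3 kb from Cryba4 at the end of the 750 kb loop, with 8.22-fold enrichment in epithelium and 11.4-fold in fiber cells. A fiber peak 1.54 kb beyond Crybb1 (chr5:112271123-112271361) was weak, 2.73-fold, and only 0.243% of the fiber list ranked at or below it.

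**Figure D2:**
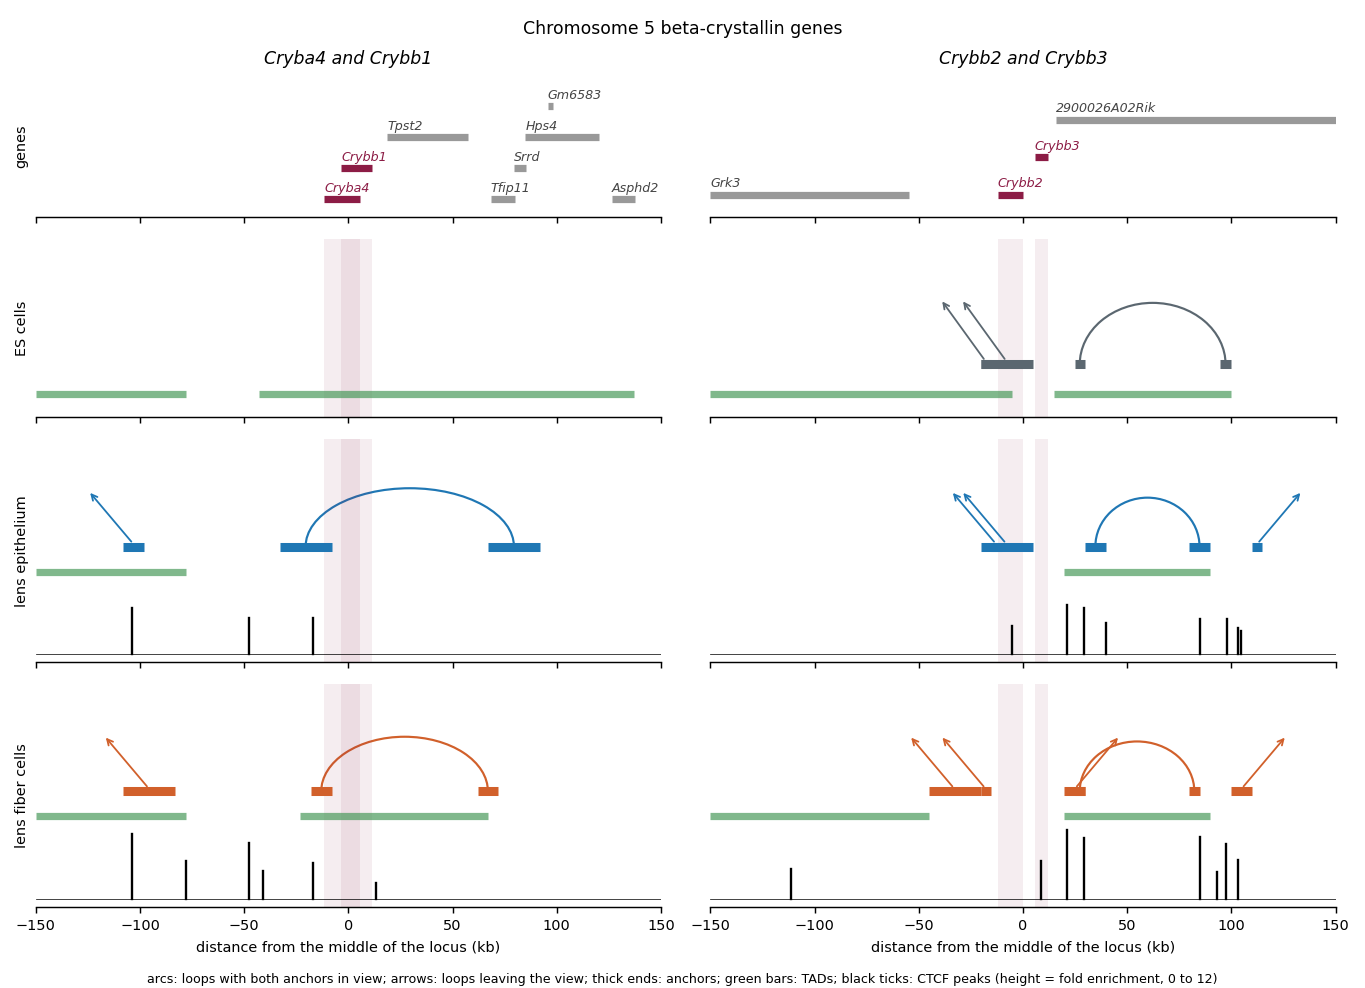
Maps of both chromosome 5 pairs, with the distance from the middle of each locus in kb on the x axis and a row for genes and then a row for each cell type; arcs join the anchors of loops, arrows mark loops that leave the view, green bars are TADs and black ticks are CTCF peaks with height giving fold enrichment (none were used for ES cells). Arcs of 100 and 80 kb cover Cryba4 and Crybb1 in the lens rows alone, whereas no arc covers Crybb2 or Crybb3 in any row.

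Crybb2 and Crybb3 sat between loops in all cell types, with none of at most 3 Mb across them. On one side a long loop joined the surroundings of Crybb2 to chr5:112450001-112475000, over Sez6l, for a brain membrane protein. In ES cells and in lens epithelium its near anchor was chr5:113050001-113075000, covering the whole of Crybb2, 600 kb from the far anchor. The contacts were 179 against 82.5 in ES cells, a ratio of 2.17 (1.86 to 2.51), and 75 against 27.9 in epithelium, 2.69 (2.12 to 3.37). In fiber cells the near anchor was called in the adjoining stretch, chr5:113025001-113050000, which ended 8.26 kb before Crybb2, with 106 against 42.9 contacts and 2.47 (2.02 to 2.99). The position differed by the width of 1 anchor and the intervals of the ratios overlapped.

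A shorter loop on the same side tied Crybb2 to Myo18b, for an unconventional myosin. It was 180 kb long in ES cells, with 56 against 14.2 contacts and a ratio of 3.93 (2.97 to 5.11). In epithelium it was 190 kb, with 28 against 5.96 contacts and 4.70 (3.12 to 6.79). In fiber cells it was 170 kb, with 27 against 7.38 contacts and 3.66 (2.41 to 5.32). Its near anchor overlapped Crybb2 in epithelium and was 3.26 kb away in the other lists.

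On the other side, beyond Crybb3, all lists had a loop inside the gene 2900026A02Rik. It spanned 70 kb in ES cells at a ratio of 4.25 (3.35 to 5.31), 50 kb in epithelium at 2.65 (2.05 to 3.36) and 55 kb in fiber cells at 3.51 (2.43 to 4.91). Lens lists added loops to anchors over Tmem211. Epithelium had 1 of 45 kb, 97.8 kb from Crybb3, at 4.01 (2.73 to 5.69). Fiber cells had 1 of 50 kb at 2.84 (2.25 to 3.55) and 1 of 130 kb, starting 7.76 kb from Crybb3, at 3.71 (2.77 to 4.88). The 130 kb fiber loop had no partner in the epithelium or ES cell list within 25 kb.

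No loop in any list joined the surroundings of Cryba4 and Crybb1 to those of Crybb2 and Crybb3, with 0 in ES cells, 0 in epithelium and 0 in fiber cells. The pairs were thus neighbours on the chromosome without a called contact between their 100 kb windows.

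A border of an ES cell TAD fell inside Crybb2. This TAD, chr5:112865001-113065000, covered 56.9% of the gene. The nearest lens TADs stayed outside, at 19.9 kb in epithelium and in fiber cells. Crybb3 was touched by no TAD in any list and lay 2.76 kb from one in ES cells and 7.76 kb from one in each lens list.

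CTCF peaks inside the genes differed between the lens lists at this pair. Crybb2 had 1 body peak in epithelium, chr5:113064951-113065142, at 4.96-fold enrichment and a −log10 q of 4.87, and the end of the ES cell TAD at 113065000 fell within it. The fiber list had none in Crybb2. Crybb3 had 1 body peak in fiber cells, chr5:113078749-113079035, at 6.61-fold enrichment and a −log10 q of 28.8, with its summit 2.69 kb inside the gene from its start site. The epithelium list had none in Crybb3. These peaks ranked at the 25.1 and 53.0 percentile of their lists by fold enrichment, and neither had a partner in the other list. With 1 list for each cell type, no error stands behind the difference.

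Stronger peaks stood upstream of both genes in both lists. The site at chr5:113091211-113091546 in epithelium was 8.98 kb from Crybb3 and 8.76-fold enriched, and its fiber partner was 12.1-fold enriched. The next, at chr5:113099621-113099927, was 8.24-fold enriched in epithelium and 10.8-fold in fiber cells, and it lay in an anchor of the 70 kb ES cell loop and of 2 fiber loops. Crybb2 had 6 peaks within 100 kb in epithelium and 7 in fiber cells, and Crybb3 had 8 and 7. As few as 2.58% of all genes had 8 or more in the epithelium list, where the median was 2.

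Cryba1 had loops in all cell types, of which 1 was called at the same anchors in every list. This loop of 140 kb ran from chr11:77825001-77830000 to chr11:77965001-77970000, over Sez6, for a neuronal membrane protein. Contacts were 158 against 21.7 in ES cells, 35 against 5.06 in epithelium and 42 against 6.93 in fiber cells. The ratios were 7.28 (6.19 to 8.51), 6.92 (4.82 to 9.63) and 6.06 (4.37 to 8.19), the highest of the loops near the family that 2 or 3 lists held, and their intervals overlapped. Its near anchor was 99.7 kb from Cryba1, just inside the window.

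Loops also crossed Cryba1. One of 300 kb in ES cells had a ratio of 2.11 (1.81 to 2.45), and one of 325 kb was at 2.96 (2.35 to 3.69) in epithelium and 2.73 (2.22 to 3.31) in fiber cells. All ended at chr11:77800001-77825000. A loop of 700 kb with the same end was listed in ES cells at 2.58 (2.01 to 3.25) and in fiber cells at 2.56 (1.86 to 3.42), and not in epithelium. An anchor over the gene itself was called in ES cells alone. It joined chr11:77720001-77725000 to chr11:77790001-77795000, over Myo18a, with 65 against 23.3 contacts and a ratio of 2.79 (2.15 to 3.55). Epithelium had a loop of 60 kb to Myo18a from an anchor 4.71 kb beyond the gene, at 2.69 (2.03 to 3.49), and the nearest fiber anchor was 74.7 kb away.

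Cryba1 was the only one of the 6 genes that a TAD touched in every list. The TADs were alike, chr11:77715001-77815000 in ES cells, chr11:77720001-77805000 in epithelium and chr11:77710001-77810000 in fiber cells. The start of the epithelium TAD fell inside the gene and left 79.2% of it covered.

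No called CTCF peak lay in Cryba1. The nearest, chr11:77737405-77737597 in epithelium and chr11:77737318-77737676 in fiber cells, was 12.1 kb from the gene in epithelium on the side of its start site. It was 4.88-fold enriched in epithelium and 9.03-fold in fiber cells, and it lay in the anchor of the 60 kb epithelium loop. Within 100 kb there were 4 epithelium and 6 fiber peaks, of which 3 were shared.

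The loops of Cryba1 and of Crybb2 reached gene relatives of each other. Myo18a and Sez6 stood at far ends of loops within 100 kb of Cryba1, and their paralogs Myo18b and Sez6l at far ends of loops near Crybb2. The Sez6 loop began 99.7 kb from Cryba1, inside Myo18a. Near anchors of the Myo18b and Sez6l loops overlapped Crybb2 or lay within 8.26 kb of it. The sizes differed, at 60 to 140 kb for Cryba1 and 170 to 600 kb for Crybb2. This was noticed in the list of far-anchor genes and was not tested.

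**Figure D3:**
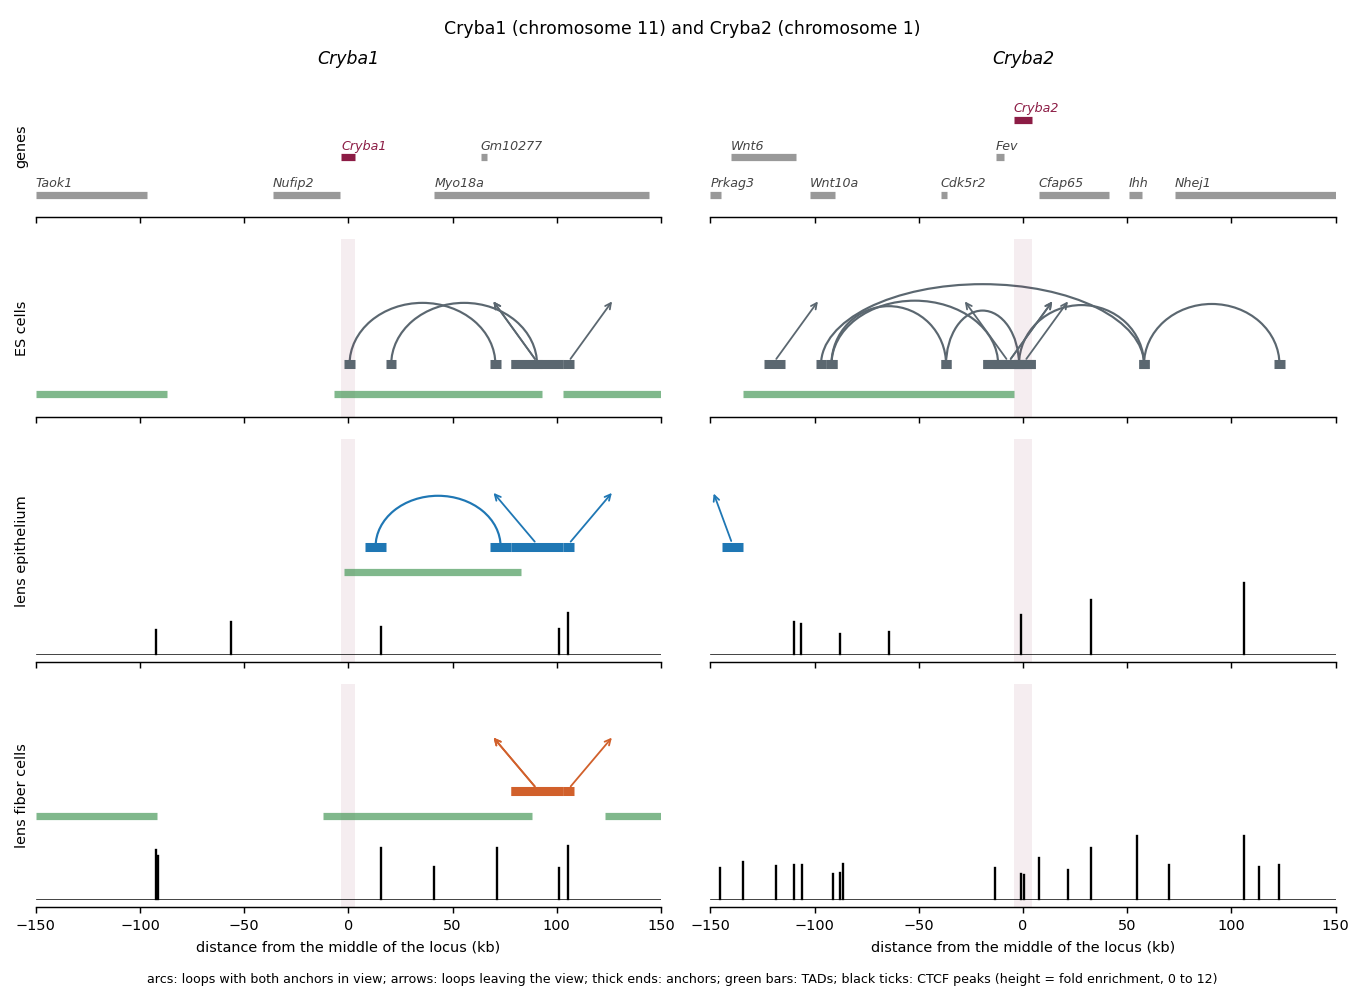
Maps of Cryba1 and Cryba2 with distance from the middle of each gene in kb on the x axis; rows, arcs, arrows, green TAD bars and black CTCF ticks are as in the maps of chromosome 5. Green bars cover Cryba1 in all rows, and the arcs around Cryba2 appear in the ES cell row alone while the CTCF ticks are densest in the fiber row.

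Cryba2 stood in a dense set of ES cell loops. An anchor overlapped the gene in 6 of its 10 ES cell loops. In the loops to Speg and Lhx4 given below, this anchor was 25 kb wide and also covered the neighbouring gene Fev. Those loops cannot be assigned to either gene alone. A loop of 35 kb ran from chr1:74890001-74895000, over Cryba2, to Cdk5r2, for an activator of the kinase Cdk5, with 68 against 31.0 contacts and a ratio of 2.19 (1.70 to 2.78). A loop of 60 kb ran from the same anchor to Ihh, for the ligand Indian hedgehog, with 78 against 24.3 contacts and 3.21 (2.54 to 4.01). A loop of 3300 kb joined the gene to Pax3, for a transcription factor of the neural crest, with 29 against 5.40 contacts and 5.37 (3.60 to 7.71).

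Of the other ES cell loops near Cryba2, several had Wnt10a as partner. Wnt10a, for a WNT ligand, lay at the far end of 3 loops whose near anchors were 4.93, 29.9 and 51.2 kb from Cryba2, at ratios of 3.27 (2.55 to 4.13), 2.89 (2.32 to 3.56) and 3.69 (2.51 to 5.24). These near anchors overlapped Fev, Cdk5r2 and Ihh, in that order, and not Cryba2. A loop of 80850 kb led to Lhx4, for a LIM homeodomain factor, with 15 observed contacts. It had fewer than 1 expected contact, so no ratio was formed. Others reached Speg over 525 kb, at 1.86 (1.57 to 2.19), and Nhej1 over 65 kb from 51.2 kb away, at 2.29 (1.67 to 3.06). The Nhej1 loop started at the anchor over Ihh.

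Neither lens list had an anchor within 100 kb of Cryba2. The closest was 130 kb away in epithelium and 441 kb away in fiber cells. The expected contacts at loops with identical anchors were higher in ES cells, by a median of 1.91 times over epithelium (931 loops) and 1.44 times over fiber cells (881 loops). The median observed contacts of all listed loops were 56 in ES cells, 51 in epithelium and 63 in fiber cells. The part of these differences in the missing lens loops was not tested. A TAD of 130 kb in ES cells, chr1:74760001-74890000, ended 67 bases inside the gene and covered 0.752% of it. The lens lists had no TAD within 100 kb of Cryba2.

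CTCF peaks were called at Cryba2 in both lens lists. A shared site lay just upstream of the listed start, at chr1:74893533-74893786 in epithelium and chr1:74893507-74893723 in fiber cells, with its summit 478 and 490 bases before the start. It was 6.84-fold enriched in epithelium and 4.47-fold in fiber cells. A second fiber peak, chr1:74894998-74895210, was 4.30-fold enriched with its summit 1.96 kb before the start. All counted as body peaks because RefSeq extends the gene past this start. Both sites overlapped the ES cell anchors over the gene. The second reached the anchor chr1:74890001-74895000 only at its edge, with its summit outside.

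The fiber list was richer around Cryba2, with 11 peaks within 100 kb against 4 in epithelium, and 2.50% of all genes had 11 or more in fiber cells. The strongest fiber peak, 11.1-fold, was 49983 bases away and had no epithelium partner. The strongest shared one, 27.9 kb away, was 9.65-fold in epithelium and 8.96-fold in fiber cells.

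**Figure D4:**
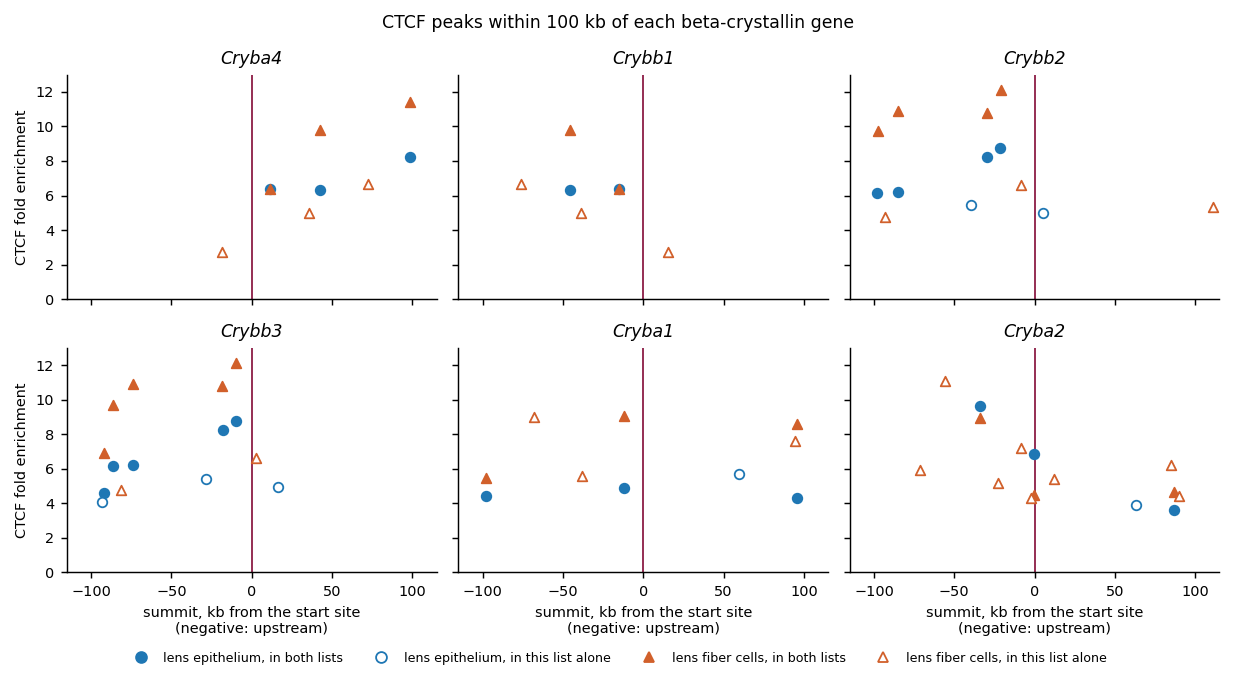
CTCF peaks within 100 kb of each beta-crystallin gene, with the summit's distance from the listed start site in kb on the x axis (negative values upstream) and the fold enrichment on the y axis; circles are lens epithelium, triangles are lens fiber cells, and filled symbols are peaks that both lists hold. The filled triangles lie at or above their circles around the chromosome 5 genes and Cryba1, and below them at 2 of the 3 shared sites of Cryba2.

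Counted over the family, 19 epithelium and 31 fiber peaks lay within 100 kb. With the fiber list reduced to its strongest peaks, as many as the epithelium list held, the fiber count was 20. Of the 19 and 31 peaks of the full lists, 14 were in both. They made up 73.7% of the epithelium peaks (Wilson 95% interval 51.2 to 88.2) and 45.2% of the fiber peaks (29.2 to 62.2). Over the whole lists of 16433 and 23868 peaks the shares were 72.8% and 50.1%, inside these intervals. The intervals treat peaks as independent, cover no spread between samples, and do not test for a difference. Fold enrichment was higher in fiber cells at 12 of the 14 shared sites, and at 73.7% of the 11956 shared sites of the genome. The median ratio of fiber to epithelium was 1.39 near the family and 1.21 overall. Around the chromosome 5 genes 8 of 8 shared sites were higher in fiber cells, at ratios of 1.00 to 1.76, around Cryba1 3 of 3, and around Cryba2 1 of 3.

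A body peak was present in 2 of 6 members in epithelium (Crybb2 and Cryba2) and in 2 of 6 in fiber cells (Crybb3 and Cryba2), against 23.9% and 35.1% of all genes. Of the 9215 genes of 2 to 20 kb, the range that holds all members, 10.8% and 19.6% had a body peak. Peaks covered 1.62% of Crybb2 and 2.85% of Cryba2 in epithelium, and 4.49% of Crybb3 and 4.83% of Cryba2 in fiber cells. The median over the 6 genes was 0 in both lists, as it was over all genes. These values rest on called narrow peaks and say nothing of broad or weak CTCF signal, which was not examined here. The authors describe broad CTCF domains over Cryba2, Cryba4 and Crybb1 in fiber cells, a large domain at Crybb3, and a CTCF-bound region at Cryba1. At Crybb2 they report reduced amounts beside those at Crybb3. More of the body was covered in fiber cells than in epithelium in 2 of 6 members, Crybb3 and Cryba2, and in 29.3% of all genes and 17.3% of those of 2 to 20 kb. By this excess Crybb3 ranked 265 of 20191, between Wfdc9 and Pced1a, with 4.49 percentage points. Cryba2 ranked 766, between Kif12 and Rasgrp2, with 1.98. The 2 fiber peaks behind this value were weak, at the 8.80 and 6.09 percentile of the fiber list by fold enrichment. In the fiber list cut to the size of the epithelium list, 1 of 6 members kept a body peak, Crybb3. The fiber excess of Cryba2 was thus absent there. With gene bodies begun at the listed start site, an option added with the data in view, the body peaks of Cryba2 dropped out, and 1 of 6 members was left in each list.

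Peaks were also counted at the loop anchors. Of the 9 epithelium loops near the family 2 had an epithelium peak at both anchors, 5 at one and 2 at neither, where 15.7% of all epithelium loops had peaks at both. Of the 10 fiber loops 5 had a fiber peak at both, 4 at one and 1 at neither, and 39.1% of all fiber loops had both.

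**Figure D5:**
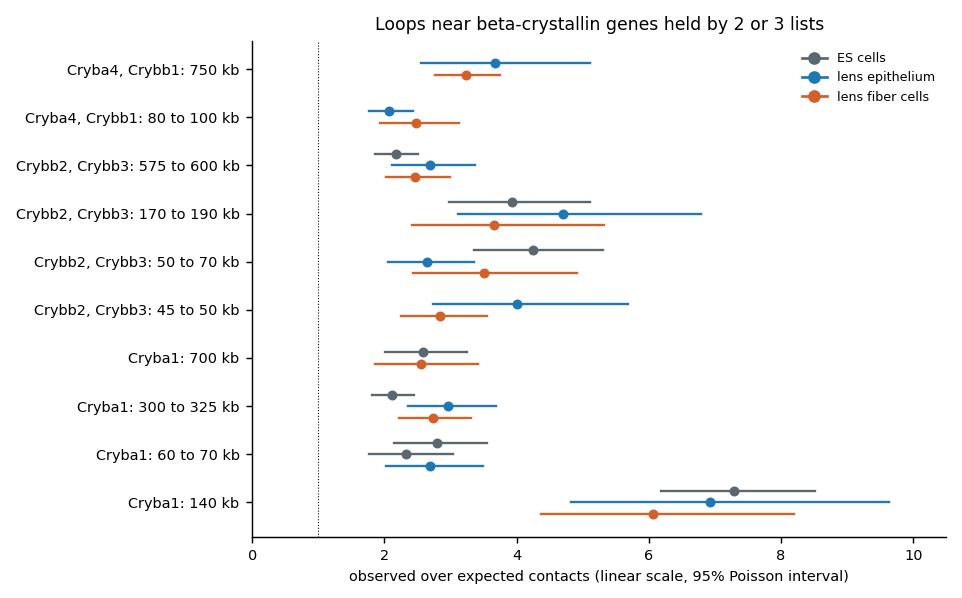
Observed over expected contacts (x axis, linear, dotted line at 1) for the 10 loops near beta-crystallin genes that 2 or 3 lists held within 25 kb; points are ratios, bars are 95% Poisson intervals and colors are cell types. The bars of different cell types overlap within every loop, and the 140 kb loop near Cryba1 lies farthest right at 6.06 to 7.28.

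Some of the loops recurred between lists. Of the 10 recurring loops 5 were in all lists and 5 in 2. The recurring loop of 60 to 70 kb near Cryba1 took in 2 ES cell loops, each set against the 60 kb epithelium loop. The intervals of the ratio overlapped in 21 of 21 pairs of loops from different cell types, which does not show equal strength. The overlap was slight at the loop inside 2900026A02Rik, where the ES cell interval began at 3.35 and the epithelium interval ended at 3.36. That loop was called with 5 kb anchors in ES cells and 10 kb anchors in epithelium, at sizes of 70 and 50 kb. The 2 ratios are thus not of like bins. With both anchor midpoints within 10 kb, 3 of 18 ES cell loops (16.7%) and 3 of 9 epithelium loops (33.3%) were shared between these lists. The same limit gave 3 of 18 (16.7%) and 3 of 10 (30.0%) for ES cells and fiber cells, and 5 of 9 (55.6%) and 5 of 10 for both lens lists. Over the whole lists the shares were 35.9% and 37.9%, 34.6% and 38.1%, and 55.5% and 57.8%. The low ES cell share near the family held the 10 loops of Cryba2, of which 0 recurred in a lens list even within 25 kb.

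The remaining loops across the genes were mostly very long. Some loop spanned 6 of 6 members in ES cells, 4 of 6 in epithelium and 6 of 6 in fiber cells, against 81.8%, 61.2% and 59.1% of all genes. With loops of at most 3 Mb the counts were 2 (Cryba1 and Cryba2), 3 (Cryba4, Crybb1 and Cryba1) and 3 (the same genes as in epithelium), against 48.5%, 38.9% and 37.8% of all genes. The same 6 ES cell loops of 13200 to 91275 kb spanned all 4 chromosome 5 genes, with 15 to 26 contacts each. One of 91275 kb was also in the fiber list, with 14 contacts. A loop of 54870 kb across Cryba1 was listed in all cell types with 44, 43 and 56 contacts, where fewer than 1 was expected. What these distant pairs are was not tested.

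TADs touched 5 of 6 members in ES cells, 1 in epithelium and 3 in fiber cells, against 42.2%, 22.3% and 30.9% of all genes. The ES cell list had 3604 TADs, the epithelium list 1796 and the fiber list 2641. The 2 ES cell TADs at Crybb2 and Cryba2 ended inside the gene. Borders of the TADs near the genes fell on multiples of 5 kb. Neither the 67-base overlap at Cryba2 nor the border within the Crybb2 peak is located more finely than that step.

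Set side by side, the chromosome 5 genes and the lone genes differed in where loops were called. The 4 genes of chromosome 5 had 3 distinct loops in ES cells, 6 in epithelium and 7 in fiber cells. Cryba1 and Cryba2 had 15 in ES cells, 3 in epithelium and 3 in fiber cells. Both lone genes had more loops in ES cells than in either lens list, and no gene of chromosome 5 had fewer in a lens list than in ES cells. With 4 genes in 2 places against 2 genes, no test was made.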

How the data were processed

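Hi-C loops and TADs covered 3 cell types and CTCF peaks the epithelium and fiber cells of the lens. The authors aligned Hi-C reads with bwa-mem to mm10 (the GRCm38 assembly), kept alignments with a mapping quality of at least 30, merged 2 replicates per cell type and called loops with HiCCUPS (juicer_tools 2.13.06) and TADs with Arrowhead. Each deposited loop gives an observed count of contacts, expected contacts as a signal computed from its surroundings, and false discovery rates as q-values. The authors called CTCF peaks with MACS2 from unique, deduplicated single-end reads. Each deposited peak carries a fold enrichment, which is a ratio to background, a score, and a q-value and p-value on the −log10 scale. The labels describe 1 ChIP sample per cell type and the methods 2 biological replicates, with a different amount of chromatin. Read depth was not used here.

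Starts were counted from 1. Distances ran between the nearest bases of a gene body and an anchor or peak, a loop spanned a gene lying between its anchor midpoints, and a TAD touched it by 1 base. Loops were shared when both midpoints lay within 10 kb, or 25 kb, and peaks when they overlapped by 1 base. At the edge of the 100 kb window, the farthest anchors inside were at 99.7 kb in ES cells and epithelium and 99.9 kb in fiber cells, and the nearest outside at 110, 110 and 138 kb. The farthest peaks inside were at 97.7 and 99.2 kb. Observed over expected used the donut expectation where it was at least 1. Named genes were the 6 members, the other crystallins, the gene nearest the middle of each far anchor, and the neighbours in rank by coverage excess. Tpst2 and Fev were named after the data were seen. The far end of 1 loop near Cryba2 is not reported here. The members and lists were chosen with earlier results of these data known. Functions were tested on simulated intervals, and 8 of 8 checks gave the known answer. Python 3.11.15, numpy 2.4.6, pandas 2.3.3, scipy 1.17.1 and matplotlib 3.10.9 were used.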

Additional observations from a re-analysis of the deposited data

How the results depend on the processing

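No paired analysis was possible because the authors merged the replicates into 1 list per cell type, and for the same reason no replicate could be left out. Of 80 alternative values 49 stayed within 1.5 times the reported count or within the interval of the reported share, and 31 moved. Some of the 49 could not move. Cutting the fiber list left the epithelium counts and coverage untouched, and all members lie in the range of 2 to 20 kb.

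Within 50 kb, loops near a member fell to 5 in epithelium and 5 in fiber cells, and with anchors of 5 or 10 kb to 6 in fiber cells. With loops of at most 3 Mb, spanning loops numbered 6, 2 and 3 in ES cells, epithelium and fiber cells, and with at least 1 expected contact (added after the data were seen) 2 and 3 in the lens lists. A TAD held the whole gene in 3 members in ES cells and 0 in epithelium. TADs of at least 200 kb touched 1, 0 and 0, and bodies widened by 25 kb were touched in 3 in epithelium and 5 in fiber cells. CTCF peaks numbered 9 and 16 within 50 kb, 30 and 52 within 200 kb, and 9 and 16 in the stronger 50% of each list. A fiber list cut to the size of the epithelium list left 20 peaks. Members with a body peak were 1 in each lens list in the stronger 50%, 1 in each with bodies begun at the listed start, and 1 in the shortened fiber list. The median covered share in fiber cells was 0.628% with bodies widened by 2 kb. Shared loops within 25 kb were 7 for ES cells and epithelium, 6 for ES cells and fiber cells and 8 for both lens lists. The 0 lens loops at Cryba2 rest on lists of called loops and say nothing of weaker contacts.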

Other observations

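The other crystallins give a frame for the family. Of 10 genes for alpha- and gamma-crystallins, 8 had a loop anchor within 100 kb in ES cells, 9 in epithelium and 8 in fiber cells. Crygn had 0, 2 and 0 loops, and Crygf had 0 in every list and 0 CTCF peaks within 100 kb. Cryaa, for alpha A-crystallin, had 3, 3 and 5 loops, and Cryab, for the related small heat shock protein alpha B-crystallin, had 3, 2 and 4. The gamma cluster genes Cryga, Crygb, Crygc, Crygd and Cryge had 2 to 4 loops in each list, largely the same ones because they lie side by side. Crygs, on chromosome 16, had 4, 3 and 4. A CTCF peak lay in the body of 0 of these 10 genes in epithelium and of 1, Crygn, in fiber cells, where it covered 2.59%. TADs touched 3, 1 and 2 of them.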
